A study of Mus musculus with 10 samples.

Results

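The 6 genes described here encode a transporter and mitochondrial enzymes through which ketone bodies and related hydroxyacids are taken up and oxidised: Slc16a1, Bdh1, Oxct1, Acat1, Adhfe1 and D2hgdh. They were taken by gene symbol from the 23337 genes of the count table, and all 6 were found. They were chosen by their CPM in the knockouts and heterozygotes of this same comparison, Adhfe1 as one of the clearer falls and the others as its neighbours in the pathway. The difference between the genotypes is therefore given for these genes as a description, without p-values, and where the number past the threshold is counted it supports nothing.

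The heart burns mainly fatty acids and, when they are offered, the ketone bodies 3-hydroxybutyrate and acetoacetate, which the liver makes from fatty acids and which are plentiful in suckling animals. A heart muscle cell takes them up through monocarboxylate transporters, oxidises 3-hydroxybutyrate to acetoacetate, moves coenzyme A from succinyl-CoA onto acetoacetate, and splits the product into acetyl-CoA for the citric acid cycle. A smaller neighbouring route oxidises 4-hydroxybutyrate, couples this to the formation of D-2-hydroxyglutarate from 2-oxoglutarate, and returns the D-2-hydroxyglutarate to 2-oxoglutarate.

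The study compared messenger RNA (poly(A) RNA) of heart muscle cells from mice with floxed alleles of Actn2, which encodes the Z-disc protein alpha-actinin-2. The 5 knockout animals carried 2 floxed alleles (Actn2 F/F) and the 5 heterozygotes, which served as controls, carried 1 floxed and 1 normal allele (Actn2 F/+). All 10 animals received AAV9-cTNT-Cre, a virus that expresses the recombinase Cre from a cardiac troponin T promoter, on postnatal day 1 at a dose of 3.6e+08 vg/g, and cells were collected on postnatal day 14. The heterozygotes thus share the virus, Cre and 1 allele open to recombination with the knockouts, and no animal without virus is among the samples. The cells were released by collagenase perfusion of the heart and sorted by fluorescence. The labels describe the 5 animals of each group as biological replicates and give neither sex nor sequencing batch.

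Total counts ran from 8086656 to 25237696 per heterozygote and from 9265270 to 16892340 per knockout. Values below are normalised counts in CPM, relative to the TMM-scaled library total, unless said otherwise. Actn2 itself stood between 2677 and 3474 CPM in the heterozygotes and between 1145 and 1286 CPM in the knockouts. The summed level of 8 cardiomyocyte markers was 91169 to 114600 CPM in the heterozygotes and 86756 to 111420 CPM in the knockouts, so the labelled cell type was present in every library, and 1 of the 8 was called lower. Of 4 adipocyte markers, 3 had no count in any library, and so did 4 of the 5 erythroid markers in the table. Whether reads of these genes could be counted was not tested, so the zeros do not show that such cells were absent. The sum of 11 endothelial markers was 565 to 926 CPM in the heterozygotes and 383 to 661 CPM in the knockouts, and 2 of the 11 were called lower. Fibroblast markers, 8 in all, summed to 330 to 538 CPM in the heterozygotes and 318 to 648 CPM in the knockouts. None of the 7 tested was called. Atrial cardiomyocyte markers, 4 in all, summed to 4.13 to 69.4 CPM (median 14.7) and 16.2 to 348 CPM (median 17.7). None of the 3 tested was called. The sum of 6 leukocyte markers was 11.97 to 34.2 CPM and 7.70 to 10.4 CPM, and 1 of the 4 tested was called lower. Without heterozygote 3 the highest heterozygote stood at 17.8 CPM. The sum of 6 smooth muscle and pericyte markers was 162 to 271 CPM (median 181) in the heterozygotes and 190 to 287 CPM (median 263) in the knockouts, and 1 was called higher. The part of fibroblast, atrial, leukocyte, smooth muscle and interferon response genes in the results was not tested. Heterozygote 3 stood apart in the sum of 8 interferon response genes, at 138 CPM against at most 16.2 CPM in the other heterozygotes. The knockouts stood at 6.93 to 12.4 CPM, and 2 of the 4 interferon response genes tested were called lower. In such bulk samples, fewer cells of a type and less RNA per cell cannot be told apart. With edgeR's quasi-likelihood test, 18.9% of the 11870 tested genes were called at an adjusted p below 0.05, 8.64% lower in the knockout and 10.2% higher, and the median log2 fold change of all tested genes was 0.0023. Of the calls, 54.3% were higher in the knockout under TMM scaling and 68.9% with library totals alone.

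To show the members at the level of DNA, the 250 bases before the start of 3 of them are printed here: Oxct1, which stood lower in the knockout, D2hgdh, whose groups overlapped, and Slc16a1, whose group means were close. The sequences are those of RefSeq on GRCm38.p6, plus strand, at chr15:4026178-4026427, chr1:93824990-93825239 and chr3:104638414-104638663. RefSeq promoters matched 4 of the 6 members, and Adhfe1 and Acat1 were without an entry. Capitals mark matches to the E-box CACGTG and the GC box GGGCGG.
Oxct1: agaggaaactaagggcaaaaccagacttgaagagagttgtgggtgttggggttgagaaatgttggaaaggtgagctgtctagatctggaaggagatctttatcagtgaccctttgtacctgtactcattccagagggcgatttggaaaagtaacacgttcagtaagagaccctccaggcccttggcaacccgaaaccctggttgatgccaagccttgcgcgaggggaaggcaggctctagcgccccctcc
D2hgdh: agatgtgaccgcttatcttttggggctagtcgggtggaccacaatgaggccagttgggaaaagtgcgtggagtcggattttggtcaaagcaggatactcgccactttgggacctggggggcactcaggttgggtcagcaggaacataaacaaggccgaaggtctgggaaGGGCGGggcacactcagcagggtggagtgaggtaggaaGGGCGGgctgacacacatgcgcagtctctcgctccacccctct
Slc16a1: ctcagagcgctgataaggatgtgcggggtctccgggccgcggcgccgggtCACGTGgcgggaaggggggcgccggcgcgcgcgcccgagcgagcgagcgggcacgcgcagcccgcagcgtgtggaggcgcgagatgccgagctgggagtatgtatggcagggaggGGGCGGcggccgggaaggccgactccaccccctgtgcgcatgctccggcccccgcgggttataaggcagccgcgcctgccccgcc
The Slc16a1 window held 1 E-box, ending 194 bases before the start, and 1 GC box, ending 79 bases before it. The D2hgdh window held 2 GC boxes, ending 75 and 37 bases before the start. The Oxct1 window held neither, and GC made up 52.0% of its bases, 58.4% of those of D2hgdh and 76.4% of those of Slc16a1, against a median of 52.4% over 32817 promoters of the same length. Searched on both strands, CACGTG was present in 6.02% of those promoters and GGGCGG in 32.7%. The nuclear receptor core AGGTCA (14.0% of promoters), the estrogen-related receptor element TNAAGGTCA (1.14%), which contains it, CCAAT (33.8%) and TATAAA (12.4%) had no match in these windows or in the windows before the 2 starts of Bdh1.

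The first step is uptake. Slc16a1, which encodes monocarboxylate transporter 1, a proton-coupled carrier of lactate, pyruvate and ketone bodies, lies at chr3:104638668-104658462 on the plus strand in 5 exons (mm10, as are all gene positions here). Its level was 734, 421, 682, 671 and 641 CPM in heterozygotes 1 to 5 and 610, 645, 580, 665 and 588 CPM in knockouts 1 to 5. The knockouts fell within the range of the heterozygotes, and heterozygote 2 stood below all other animals. Heterozygotes averaged 630 ± 122 CPM and knockouts 618 ± 36.5 CPM (SD, n = 5), for a log2 fold change of -0.03 (SE 0.127). Without heterozygote 2 the log2 fold change was -0.14, and its sign turned to 0.05 with library totals alone.

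Bsg, a membrane chaperone that monocarboxylate transporter 1 needs to reach the cell surface, fell in the knockout. Its level was 1809, 2477, 1976, 1797 and 1921 CPM in the heterozygotes and 1149, 1038, 1087, 1130 and 1121 CPM in the knockouts, without overlap. By edgeR's test this was a log2 fold change of -0.85 (SE 0.0959, adjusted p = 3.63e-05).

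The next step, oxidation of 3-hydroxybutyrate to acetoacetate, is carried out by the product of Bdh1, at chr16:31422297-31458901 on the plus strand in 8 exons. Bdh1 was barely detected in either group. It had 7, 1, 1, 4 and 2 counts in heterozygotes 1 to 5 and 5, 3, 2, 0 and 0 counts in knockouts 1 to 5. Summed over the libraries, this was 15 and 10 counts, or 0.255 CPM (exact Poisson 95% interval 0.142 to 0.420) and 0.166 CPM (0.0794 to 0.305), with intervals that cover counting error only. The ratio of knockout to heterozygote was 0.651 (95% interval 0.261 to 1.55), so a difference was not detectable at this depth. Bdh1 was the 1 member of 6 that did not pass the filter on low counts, and no fold change was fitted for it.

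Oxct1 encodes succinyl-CoA:3-oxoacid CoA transferase, the mitochondrial enzyme that activates acetoacetate and is the committed step of ketone oxidation outside the liver. It lies at chr15:4026428-4155344 on the plus strand in 17 exons. Its level was 689, 650, 553, 629 and 641 CPM in heterozygotes 1 to 5 and 523, 394, 385, 397 and 270 CPM in knockouts 1 to 5. Every knockout stood below every heterozygote, with knockout 1 nearest to them and knockout 5 the lowest. The means were 632 ± 49.6 and 394 ± 89.4 CPM (SD, n = 5), so the knockout held 62.2% of the heterozygote level, with a log2 fold change of -0.68 (SE 0.138). The spread among the knockouts was wider, with a coefficient of variation of 22.7% against 7.84%. The log2 fold change was -0.81 without knockout 1, -0.57 without knockout 5 and -0.73 without heterozygote 3. The table's Oxct1 shares 422 bases, 12.1% of its length, with the antisense gene BC037032, and reads over both genes were counted for neither.

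Acat1, at chr9:53580522-53610350 on the minus strand in 12 exons, encodes the mitochondrial acetoacetyl-CoA thiolase, which splits acetoacetyl-CoA into acetyl-CoA and also acts in isoleucine breakdown. Per length it was the most abundant member. Its level was 1255, 1189, 1146, 1098 and 1258 CPM in heterozygotes 1 to 5 and 881, 905, 802, 854 and 788 CPM in knockouts 1 to 5. The groups did not overlap and each was tight, with coefficients of variation of 5.84% and 5.95%. The means of 1189 ± 69.5 and 846 ± 50.3 CPM (SD, n = 5) corresponded to a log2 fold change of -0.49 (SE 0.0792), and the knockout held 71.1% of the heterozygote level. Without heterozygote 3 the log2 fold change was -0.51.

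Adhfe1 had the largest fold difference of the 5 genes fitted, though not the largest in CPM. It encodes hydroxyacid-oxoacid transhydrogenase, a mitochondrial enzyme that oxidises 4-hydroxybutyrate to succinic semialdehyde while reducing 2-oxoglutarate to D-2-hydroxyglutarate, and lies at chr1:9548046-9577968 on the plus strand in 14 exons. Its level was 105, 95.0, 93.8, 105 and 106 CPM in heterozygotes 1 to 5 and 35.4, 36.7, 33.9, 39.7 and 41.8 CPM in knockouts 1 to 5. All knockouts stood far below all heterozygotes. The means were 101 ± 6.03 and 37.5 ± 3.22 CPM (SD, n = 5), with 37.1% of the heterozygote level left and a log2 fold change of -1.43 (SE 0.0897). Counted from the lowest fold change, Adhfe1 was number 67 of the 11870 tested genes. Without heterozygote 3 its log2 fold change was -1.46. It shares 49 bases, 1.56% of its length, with the antisense gene 2610203C22Rik, which stood at 1.15 CPM in the heterozygotes and 0.616 CPM in the knockouts.

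D2hgdh encodes the D-2-hydroxyglutarate dehydrogenase of mitochondria, which removes the product of the Adhfe1 reaction and passes electrons to the electron transfer flavoprotein. It lies at chr1:93825240-93852174 on the plus strand in 10 exons. Its level was 39.8, 31.3, 40.0, 32.3 and 37.0 CPM in heterozygotes 1 to 5 and 26.1, 31.5, 27.6, 26.9 and 34.7 CPM in knockouts 1 to 5. Knockouts 2 and 5 lay within the heterozygote range and the other 3 below it. The means of 36.1 ± 4.08 and 29.4 ± 3.65 CPM (SD, n = 5) gave a log2 fold change of -0.29 (SE 0.114), with values of -0.36 (without knockout 5) to -0.25 (without heterozygote 1) when 1 animal was left out.

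**Figure D1:**
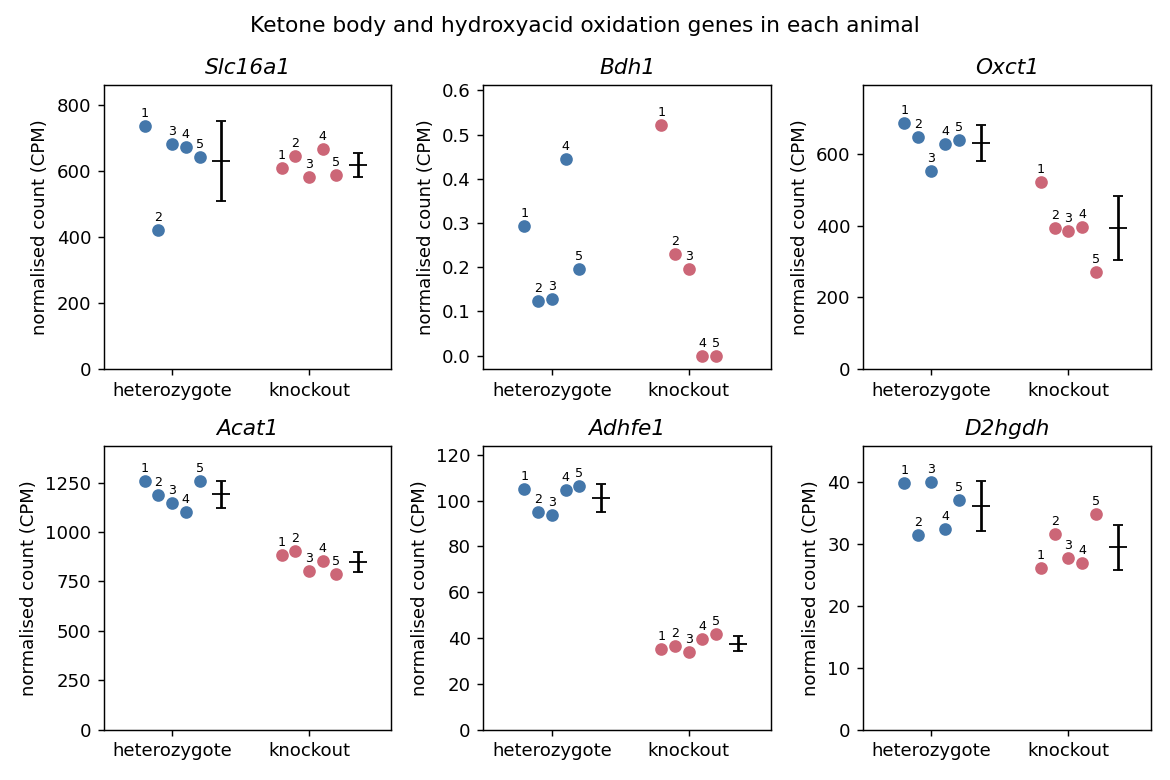
Level of each of the 6 genes in every animal, in CPM on a linear axis, with heterozygotes in blue and knockouts in red, numbered by replicate; black marks show the mean and SD of 5 animals (none for Bdh1, which had 0 to 7 counts). Oxct1, Acat1 and Adhfe1 stood lower in all 5 knockouts than in any heterozygote, whereas the groups overlapped for Slc16a1, Bdh1 and D2hgdh.

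The plot of levels by animal puts these patterns side by side. Of the 5 members tested, 3 (Oxct1, Acat1 and Adhfe1) passed the threshold as lower, beside 8.64% of all tested genes, and none as higher. Without heterozygote 2 or without knockout 5, D2hgdh passed it too. The same 3 had no overlap between groups with the knockouts below, beside 6.32% of all tested genes. Nothing is read from these counts, since the members were chosen with this contrast in view. Endothelial marker levels moved with genotype, as given above. With their mean as a covariate, the log2 fold changes were -1.45 for Adhfe1, -0.52 for Acat1 and -0.61 for Oxct1, and Oxct1 no longer passed the threshold.

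Counts per gene depend on transcript length, so levels were compared between genes only in RPKM, the CPM divided by the gene's length in kilobases. In the heterozygotes the order was Acat1 at 353 ± 20.6, Oxct1 at 182 ± 14.2, Slc16a1 at 142 ± 27.5, Adhfe1 at 32.2 ± 1.92, D2hgdh at 11.8 ± 1.34 and Bdh1 at 0.0712 RPKM (SD, n = 5). The ranges of Oxct1 (159 to 198) and Slc16a1 (95.1 to 166 RPKM) overlapped, and those of the other neighbours did not. In the knockouts the order was Acat1 at 251 ± 14.9, Slc16a1 at 140 ± 8.24, Oxct1 at 113 ± 25.7, Adhfe1 at 11.9 ± 1.03, D2hgdh at 9.61 ± 1.19 and Bdh1 at 0.0567 RPKM. Oxct1 and Slc16a1 changed places, with overlapping ranges in this group too (77.6 to 150 and 131 to 150 RPKM). Adhfe1 came down to the neighbourhood of D2hgdh, with ranges of 10.8 to 13.3 and 8.55 to 11.4 RPKM.

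**Figure D2:**
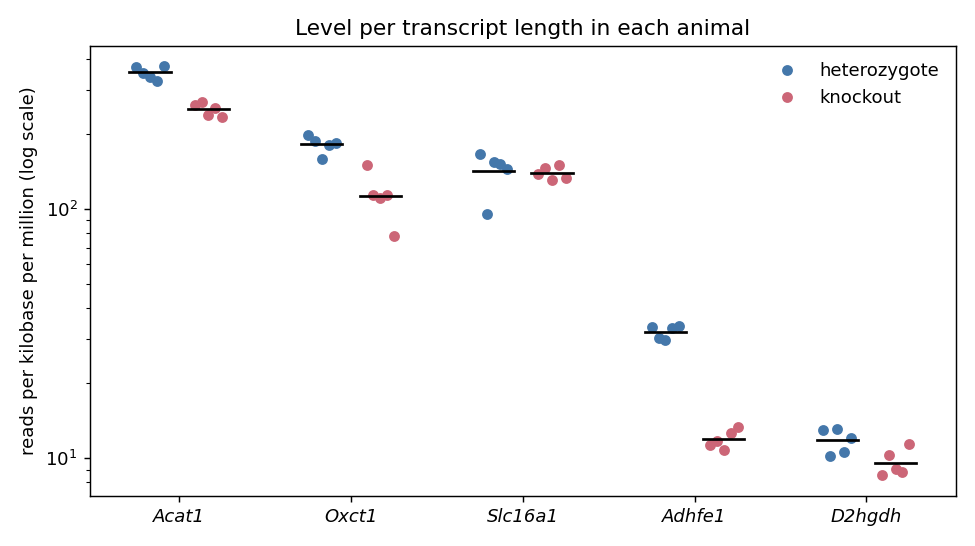
Length-scaled level (RPKM, logarithmic axis) of the 5 members above the count filter; points are animals and bars are group means. Adhfe1 and D2hgdh lie apart in the heterozygotes, at 32.2 and 11.8 RPKM, and close together in the knockouts, at 11.9 and 9.61 RPKM.

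Ratios of length-scaled levels within an animal do not depend on the scaling of its library. Adhfe1, whose enzyme forms D-2-hydroxyglutarate, stood at 2.75 ± 0.339 times D2hgdh, whose enzyme removes it, in the heterozygotes (range 2.29 to 3.16), and at 1.25 ± 0.126 times in the knockouts (1.13 to 1.44; SD, n = 5). The ranges were far apart. Slc16a1 over Oxct1 was 0.789 ± 0.170 in the heterozygotes (0.509 to 0.970) and 1.28 ± 0.287 in the knockouts (0.918 to 1.71), which overlapped. Acat1 over Oxct1 was 1.95 ± 0.134 (1.80 to 2.14) and 2.30 ± 0.461 (1.74 to 3.01), also overlapping. Adhfe1 over Oxct1 was 0.178 ± 0.0113 (0.162 to 0.188) and 0.112 ± 0.0360 (0.0751 to 0.171), which overlapped as well. Relative to D2hgdh, Adhfe1 thus stood lower in every knockout than in any heterozygote, while the other 3 ratios had overlapping ranges. These ratios rest on the contrast used in the choice and carry no test.

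**Figure D3:**
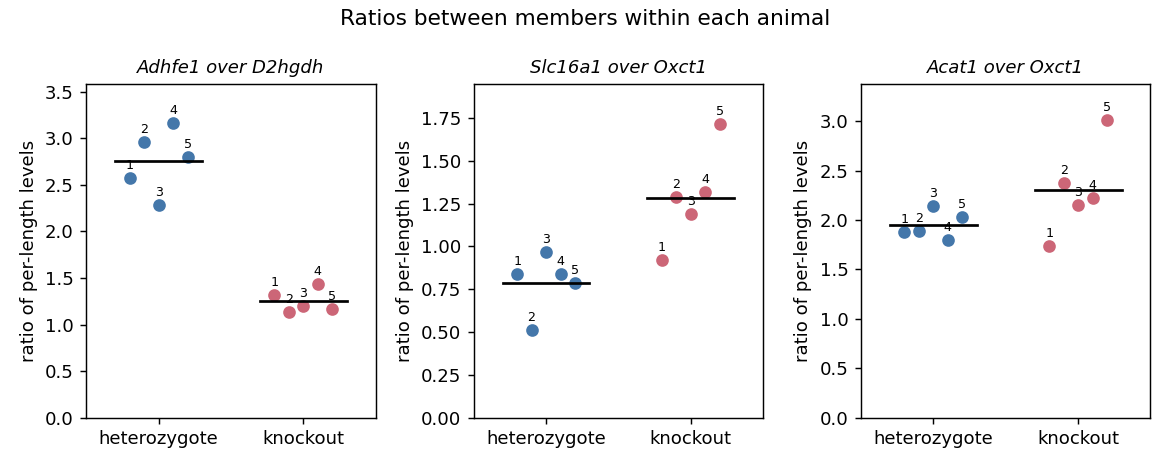
Ratio of the length-scaled levels of 3 pairs of members in each animal (linear axis from 0, numbers are replicates, bars are group means). Adhfe1 over D2hgdh ran from 2.29 to 3.16 in the heterozygotes and from 1.13 to 1.44 in the knockouts, whereas the groups overlapped for the other pairs.

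The members did not all vary together from animal to animal. Over the 10 animals, which share the genotype contrast, Pearson's r in log2 CPM was 0.902 between Oxct1 and Acat1, 0.946 between Acat1 and Adhfe1 and 0.807 between Oxct1 and Adhfe1. Taken as deviations from the group means, the same pairs gave 0.608, -0.02 and -0.41. The Acat1 and Adhfe1 values thus moved together across genotypes and showed almost no shared variation within them. Slc16a1 had an r between 0.027 and 0.321 with the other 4 tested members over all animals.

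Among 8364 other tested genes whose mean reached 10 CPM, the 3 most like each member over the 10 animals were named by r. For Oxct1 they were Lrtm1 (0.978), Them4 (0.971) and Mdh1 (0.964), the cytosolic malate dehydrogenase, with 0.943, 0.894 and 0.965 within groups. For Acat1 they were Fh1 (0.991), the citric acid cycle fumarase, Acadm (0.989), the medium-chain acyl-CoA dehydrogenase, and Acss1 (0.989), the mitochondrial acetyl-CoA synthetase, with 0.890, 0.926 and 0.893 within groups. For Adhfe1 they were Asb14 (0.989), Sccpdh (0.985) and Stom (0.983), with 0.902, 0.591 and 0.619 within groups. For D2hgdh they were Mreg (0.929), Corin (0.925) and Lrch1 (0.913). For Slc16a1 they were Arfgef1 (0.954), Tm9sf2 (0.947) and Zmpste24 (0.936), none of which differed between the group means by more than 0.05 on the log2 scale. These are the highest values of a search through all candidates and are given as a description.

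The wider pathway was described by lists of related genes, chosen with earlier results of these data known. Each list with a count was counted whole, and the cytosolic genes named next are given without a count. Of the genes that handle ketone units in the cytosol, Aacs, the cytosolic acetoacetyl-CoA synthetase, had means of 5.63 and 7.80 CPM (edgeR adjusted p = 0.0807), and the cytosolic thiolase gene Acat2 had means of 5.32 and 6.92 CPM (adjusted p = 0.343).

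The mitochondrial thiolases and their partner enzymes of fatty acid oxidation were lower as a block: 6 of 6 were tested and all 6 were called lower, beside 8.64% of all tested genes. The median log2 fold change was -0.62, beside 0.0023 for all tested genes and -0.49 for the 5 tested members. Acaa2, the medium-chain 3-ketoacyl-CoA thiolase, fell from 2808 ± 440 to 1620 ± 129 CPM (log2 fold change -0.79, edgeR adjusted p = 1.64e-04). Hadh, the short-chain 3-hydroxyacyl-CoA dehydrogenase, fell from 896 ± 117 to 486 ± 40.3 CPM (-0.88, adjusted p = 4.59e-05). Hadhb, the thiolase subunit of the trifunctional protein, fell from 1579 ± 119 to 1021 ± 31.4 CPM (-0.63, adjusted p = 8.04e-05). The log2 fold change of Acat1 was -0.49, smaller in size than those of Acaa2 and Hadhb, and these differences between genes were not tested.

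Of the 19 monocarboxylate transport genes, 17 were in the table and 9 were tested, with 2 called lower and 1 higher, beside 8.64% and 10.2% of all tested genes, and a median log2 fold change of -0.44. The share called higher was near that of all genes. Bsg, described above, and Slc16a10, an aromatic amino acid transporter, were the 2 falls. Slc16a10 went from 14.2 to 9.77 CPM (log2 fold change -0.54, edgeR adjusted p = 0.0144). Slc16a3, which encodes the lactate exporter monocarboxylate transporter 4, was the rise, from 2.35 ± 0.497 to 5.14 ± 1.79 CPM (1.15, SE 0.265, adjusted p = 0.00759). It had 18 to 38 counts per heterozygote and 35 to 79 per knockout. Knockout 1 stood at 8.23 CPM and the other knockouts at 3.59 to 4.88 CPM. Without knockout 1 the log2 fold change of Slc16a3 was 0.92 (edgeR adjusted p = 0.0204). Per length Slc16a3 stayed far below Slc16a1, at 0.912 and 2 RPKM beside 142 and 140 RPKM. With endothelial markers as a covariate neither was called, with log2 fold changes of 1.24 for Slc16a3 (adjusted p = 0.0615) and -0.49 for Slc16a10 (adjusted p = 0.144) that were close to those without it.

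Around Adhfe1 and D2hgdh, 10 of 12 genes of 2-hydroxyglutarate and 4-hydroxybutyrate metabolism were tested, of which 7 were called lower, beside 8.64% of all tested genes, and 1 higher, beside 10.2%. The median log2 fold change was -0.49. Aldh5a1, which oxidises the succinic semialdehyde that the Adhfe1 reaction forms, fell from 38.0 ± 3.08 to 23.1 ± 3.13 CPM (-0.72, edgeR adjusted p = 6.08e-04), and overlaps another gene of the table, over which reads were not counted. Idh2, the NADP-dependent isocitrate dehydrogenase of mitochondria, fell from 2908 ± 164 to 2176 ± 210 CPM (-0.42, adjusted p = 0.00368), and its cytosolic counterpart Idh1 from 71.9 ± 14.1 to 46.6 ± 4.83 CPM (-0.63, adjusted p = 0.00368). Abat, the GABA transaminase, was the gene called higher, from 3.55 to 5.60 CPM (0.66, adjusted p = 0.0214). That call was lost without heterozygote 1, knockout 1 or knockout 3 (adjusted p 0.0531 to 0.0551), with the replicate number as a block (0.0522) and with the endothelial covariate (log2 fold change 0.56, adjusted p 0.198). Glud1, the glutamate dehydrogenase, had means of 143 and 140 CPM (-0.03, adjusted p = 0.879), with a sign that turned under library totals alone (0.05).

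Of 13 genes of other hydroxyacid dehydrogenases, related enzymes and electron carriers, 9 were tested, with a median log2 fold change of -0.48. Of these, 6 were called lower (8.64% of all tested genes) and none higher (10.2%). The 6 were the dehydrogenase genes Ldhb and Hibadh, the hydrolase gene Hibch and the electron carrier genes Etfa, Etfb and Etfdh. The dehydrogenase genes Ldha, Ldhd and Grhpr were not called. Ldhb, the heart subunit of lactate dehydrogenase, fell from 1539 ± 163 to 1104 ± 92.2 CPM (-0.48, edgeR adjusted p = 0.00252). Ldha, the muscle subunit, had means of 1940 and 1680 CPM (-0.21, adjusted p = 0.218). Etfdh, which passes electrons from the acceptor of the D2hgdh reaction to ubiquinone, fell from 1356 ± 156 to 832 ± 62.7 CPM (-0.70, adjusted p = 1.60e-04). Hibch, which frees 3-hydroxyisobutyrate in valine breakdown, fell by 0.43 on the log2 scale (adjusted p = 0.0119), a call that ended with the endothelial covariate (log2 fold change -0.35, adjusted p = 0.17).

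The citric acid cycle receives the acetyl-CoA made by Acat1 and supplies the succinyl-CoA used by Oxct1. All 17 of its genes were tested, 16 were called lower, where 8.64% of all tested genes were, and none higher, where 10.2% were. The median log2 fold change was -0.52. Sucla2, a subunit of succinyl-CoA synthetase, fell from 1372 ± 183 to 875 ± 63.8 CPM (-0.65, edgeR adjusted p = 5.32e-04). Fh1 fell from 838 ± 57.8 to 568 ± 25.9 CPM (-0.56, adjusted p = 2.39e-04). Ogdh, the 2-oxoglutarate dehydrogenase subunit, was the gene not called, with means of 3290 and 2705 CPM (-0.28, adjusted p = 0.0746). With the endothelial covariate Dld, Sdhd and Suclg2 were no longer called, which left 13 of the 17. Their log2 fold changes were -0.49, -0.37 and -0.38 with it and -0.53, -0.40 and -0.37 without it.

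Of 12 nuclear receptors, coactivators and a deacetylase known to govern mitochondrial fuel genes, all were tested and 3 were called, 2 lower and 1 higher, near the share of 18.9% over all tested genes. The median log2 fold change was -0.32. Rxrg, a retinoid X receptor, fell from 98.5 ± 17.8 to 28.5 ± 7.21 CPM (-1.79, SE 0.171, edgeR adjusted p = 9.29e-06), which was further than any member. Sirt3, the mitochondrial deacetylase, fell from 77.9 ± 17.1 to 50.9 ± 4.92 CPM (-0.61, adjusted p = 0.0053), and likewise overlaps a neighbour, Ric8. Ppara, the fatty acid receptor known to drive ketogenic and oxidation genes, had means of 55.4 ± 14.2 and 41.2 ± 12.8 CPM (-0.42, adjusted p = 0.182). Esrrg, an orphan nuclear receptor of oxidative metabolism, was called higher, from 54.9 to 72.0 CPM (0.39, adjusted p = 0.0457). Leaving out 1 animal ended the Esrrg call in 8 of 10 cases, all but those without heterozygote 1 or knockout 5 (adjusted p 0.0541 to 0.105), as did 4 of 9 other settings (0.0536 to 0.145).

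**Figure D4:**
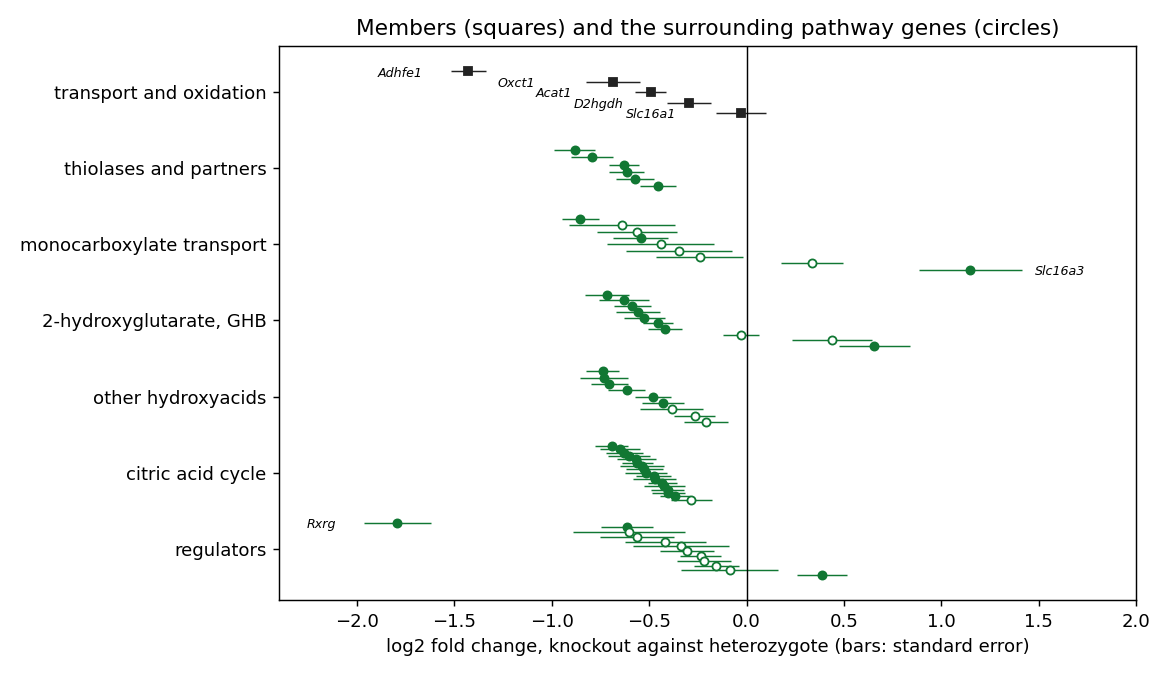
Log2 fold change of the 5 tested members (black squares, shown without a call) and of the tested genes of 6 pathway lists (circles, filled where the edgeR adjusted p was below 0.05), with standard errors. Adhfe1 at -1.43 lies to the left of every other gene drawn except Rxrg at -1.79, and all 6 thiolase and partner genes lie below 0.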

How the data were processed

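RNA of sorted heart muscle cells was sequenced from 10 animals after SMART-Seq amplification and Nextera XT library preparation. Per the file headers, the authors counted reads per gene with featureCounts 1.5.1 on build mm10 with a UCSC annotation archive of 2012, and deposited whole-number counts that are not normalised; the table's Length column gives each gene's length in bases, per the file headers. The header shows no strand option, so reads were taken as unstranded and reads over several genes as uncounted, which are the program's defaults. The submitters' processing notes list STAR 2.5.3a, Subread 1.5.2 and CASAVA 1.8. Of 14 count columns, 10 carry the names of these samples, and the other 4 were not used.

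Genes were filtered with filterByExpr (minimum count 10, minimum total count 15), scaled with TMM, and compared with edgeR's quasi-likelihood test (edgeR 4.0.16, R 4.3.3) over all 10 animals without covariates. Benjamini-Hochberg adjustment ran over the 11870 genes tested, and calls were made at adjusted p-values under 0.05. Standard errors are the log2 fold change divided by the square root of F. The log2 CPM used a prior count of 1. A check for a library deposited more than once within a genotype group found none (chi-square per degree of freedom 10.8 to 37.5 over 20 replicate pairs). Heterozygotes were not compared with knockouts in this check, which says nothing of replicate quality. The members and lists were chosen with earlier results of these data known. The text names the members, genes of the lists, and the 3 genes most like each member. Some genes and 1 list are not reported here. The procedure was tested on simulated counts.

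Alternatives were RLE and upper-quartile scaling, library totals alone, no filter, a minimum mean of 5 CPM, a block for the replicate number, an endothelial marker covariate, DESeq2 1.42.0, voom with sample weights (limma 3.58.1), and leaving out each animal. Because libraries were amplified by PCR, intervals and floors describe counting error alone. In single libraries the floor of 3 counts corresponded to 0.126 to 0.384 CPM.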

Additional observations from a re-analysis of the deposited data

Results flagged for a closer look

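In heterozygote 2, Slc16a1 stood at 8.72 log2 CPM (421 CPM), while the nearest of the other 4 heterozygotes was at 9.32. The gap took 0.754 of the group's whole range, above the critical value of 0.71 for 5 samples. Of the 10 groups examined (5 members in each genotype) this was the 1 that stood out, and chance alone gives about 1 in 20 groups.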

How the results depend on the processing

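For the members, chosen on this contrast, the ranges over settings are descriptions and add no support. Over the 10 fits without 1 animal and the 9 other settings, log2 fold changes ran from -1.47 to -1.35 for Adhfe1, -0.52 to -0.41 for Acat1 and -0.81 to -0.57 for Oxct1, which was -0.61 and no longer past the threshold with the endothelial covariate. That covariate left 1003 calls (491 lower, 512 higher) of 2241, against 1699 to 2258 calls without 1 animal and 2081 to 2639 in the other 8 settings. The cause was not tested. D2hgdh passed the threshold with voom (-0.37) and without heterozygote 2 or knockout 5 (range -0.36 to -0.25 when animals were left out), and not in the other settings, from -0.21 with library totals alone to -0.44 with the endothelial covariate. Slc16a1 changed sign with library totals alone (0.050), with the endothelial covariate (0.053), and without heterozygote 1 or heterozygote 3 (range -0.14 to 0.035 when animals were left out). Glud1 changed sign with library totals alone (0.054; without 1 animal, -0.070 to 0.0091), and Pparg, a receptor of the regulator list at -0.09, with the endothelial covariate (0.30) and voom (0.046; without 1 animal, -0.22 to 0.13). Library totals alone moved the median of all genes to 0.0839. The replicate block gave 2182 calls and changed no member's call, while Abat was no longer called (adjusted p 0.0522). Same-numbered animals deviated with correlations of -0.06 to 0.185, 3 of 5 over 0.1. Animals of unlike number were not compared in this way, so whether the numbers pair the animals was not tested. Bdh1 was too shallow to compare.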
